A study of Mus musculus with 2 samples.

Results

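The mature microRNAs let-7a, let-7c and let-7f are each made from 2 genes in the mouse, and the 6 genes described here are those copies: Mirlet7a-1, Mirlet7a-2, Mirlet7c-1, Mirlet7c-2, Mirlet7f-1 and Mirlet7f-2. They were taken by gene name from the 2202 annotated microRNA genes counted in the deposited tables, because both copies of a pair carry the same mature sequence on the 5p arm of the hairpin. All 6 were found in the tables, and all 6 passed the minimum for testing of 10 reads over both libraries. The samples were heart tissue of male B6CASTF1/J mice, an F1 hybrid strain, aged 18 to 20 months, with no treatment given in the labels. They form 1 group of 2 small RNA libraries, named biological replicate 1 and 2, with separate biosamples that cite a single donor record. P-values below therefore measure differences between these libraries, which may be technical, and no comparison of conditions was possible.

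The let-7 family is conserved from worms to mammals and is known for repressing growth and stem cell genes, among them Ras genes, Myc, Hmga2 and Lin28a. A microRNA hairpin is first cut from a long primary transcript by Drosha and then opened by Dicer, and 1 arm is loaded into an Argonaute protein, where its seed (bases 2 to 8) pairs with target messenger RNAs. LIN28 proteins bind let-7 precursors and block their processing, and mature let-7 is known to accumulate as tissues differentiate. Where a mature microRNA has several genes, the mature molecule itself does not tell which gene it came from.

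The mature 5p sequences are shown because they are what the copies of a pair have in common. The seed is in capitals, sequences run 5′ to 3′ and come from RefSeq (build GRCm38.p6).
let-7a-5p: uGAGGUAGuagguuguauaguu
let-7c-5p: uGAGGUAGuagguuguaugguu
let-7f-5p: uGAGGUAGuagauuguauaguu
All 3 share the seed GAGGUAG and have 22 bases. Counted from 1 at the 5′ end, let-7c differs from let-7a by A19G and let-7f differs from let-7a by G12A.

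The hairpins are shown because reads can be given to 1 copy only through bases outside the shared part. The capitals mark the mature 5p and 3p arms, and the annotated hairpin was the same in GENCODE and in RefSeq for all 6 genes.
Mirlet7a-1: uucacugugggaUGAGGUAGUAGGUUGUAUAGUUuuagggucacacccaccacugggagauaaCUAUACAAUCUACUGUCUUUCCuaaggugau
Mirlet7a-2: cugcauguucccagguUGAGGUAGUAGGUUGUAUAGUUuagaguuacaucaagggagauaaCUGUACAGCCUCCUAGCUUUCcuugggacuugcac
Mirlet7c-1: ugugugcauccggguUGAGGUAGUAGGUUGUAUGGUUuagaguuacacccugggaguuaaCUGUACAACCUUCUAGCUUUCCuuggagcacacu
Mirlet7c-2: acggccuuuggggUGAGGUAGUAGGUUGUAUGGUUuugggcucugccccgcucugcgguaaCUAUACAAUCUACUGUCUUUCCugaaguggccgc
Mirlet7f-1: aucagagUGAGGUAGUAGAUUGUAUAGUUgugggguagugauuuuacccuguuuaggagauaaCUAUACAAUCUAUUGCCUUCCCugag
Mirlet7f-2: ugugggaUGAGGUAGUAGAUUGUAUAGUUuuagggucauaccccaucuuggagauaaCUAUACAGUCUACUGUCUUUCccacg
The copies of let-7a share a longest stretch of 23 bases, those of let-7c also 23, and those of let-7f 22. The longest stretch shared between any of the 6 hairpins, 26 bases, joined Mirlet7a-1 and Mirlet7c-2 and lay over their 3p arms, which are identical over all 22 bases. The other 3p arms, those of Mirlet7a-2, Mirlet7c-1, Mirlet7f-1 and Mirlet7f-2, were found in no other annotated hairpin. Here and below, Gm24111, annotated over the whole of Mirlet7f-1 on the opposite strand, was not counted as another hairpin for Mirlet7f-1. Between the copies of a pair, the 3p arms differed at 6 of 21 compared positions for let-7a, 5 of 22 for let-7c and 4 of 21 for let-7f.

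Every read that is exactly the mature 5p sequence matches both hairpins of its pair. A 5p read that starts at the first mature base had to run on into the loop before it matched 1 annotated hairpin only. The mature sequence is given below in lower case with the next 4 bases of each copy in capitals.
Mirlet7a-1: ugagguaguagguuguauaguuUUAG
Mirlet7a-2: ugagguaguagguuguauaguuUAGA
Mirlet7c-1: ugagguaguagguuguaugguuUAGA
Mirlet7c-2: ugagguaguagguuguaugguuUUGG
Mirlet7f-1: ugagguaguagauuguauaguuGUGG
Mirlet7f-2: ugagguaguagauuguauaguuUUAG
The copies of let-7a and let-7c have a U in common after the mature end, so a read of 24 bases, 2 past the end, was the shortest to tell them apart. For let-7f the first base past the end differs, and 23 bases were enough. The labels give the size range of the libraries as under 30, with no unit.

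Windows of 22 bases were slid along the hairpins in steps of 1 base. They were found once among all annotated hairpins in 405 of 425 cases (95.3%). The median share per gene was 97.3% for the 6 copies, below the 100% of all 2202 microRNA genes. It was also 100% for the 424 genes with at least 10 reads. The share was 90.4% for Mirlet7a-1 (66 of 73 windows), 90.5% for Mirlet7c-2 (67 of 74), 97.3% for Mirlet7a-2 (73 of 75), 97.3% for Mirlet7c-1 (71 of 73), 98.5% for Mirlet7f-1 (67 of 68) and 98.4% for Mirlet7f-2 (61 of 62). The ambiguous windows thus lie at or beside the mature arms, which is where most reads of a microRNA gene are known to lie. The genome outside annotated hairpins was not searched. Gm24111 was left out for Mirlet7f-1, and with it counted none of the Mirlet7f-1 windows would be found once.

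**Figure D1:**
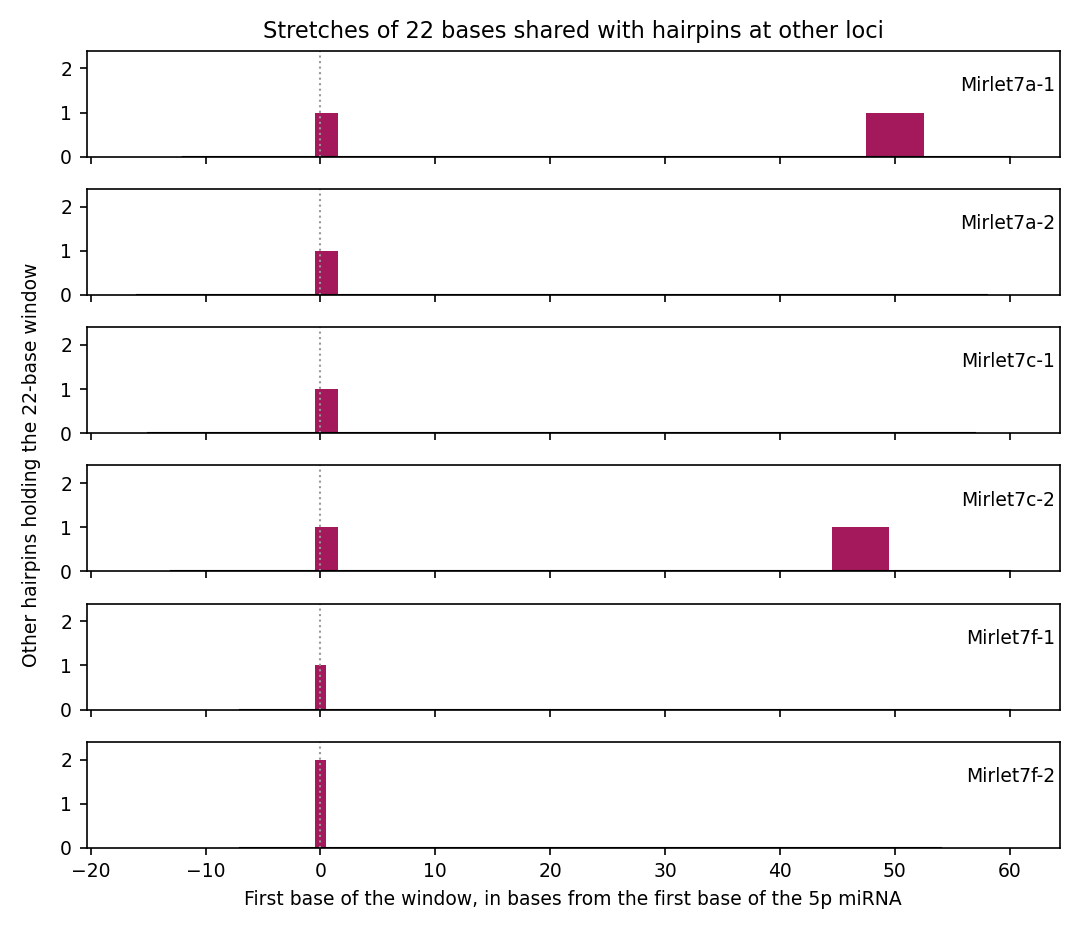
Each panel follows 1 hairpin, with the start of a 22-base window relative to the first base of the mature 5p arm on the x axis (bases) and the number of other annotated hairpins that hold the same window on the y axis. All 6 rise above 0 at the 5p start, and Mirlet7a-1 and Mirlet7c-2 also do so over their 3p arms. The value of 2 at Mirlet7f-2 counts Mirlet7f-1 and Gm24111, which is annotated over Mirlet7f-1 on the opposite strand. Gm24111 was not counted for Mirlet7f-1.

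The loci are on 5 chromosomes, with coordinates on build GRCm38 (mm10). Mirlet7a-1 (ENSMUSG00000065421.3, chr13:48538179-48538272) and Mirlet7f-1 (ENSMUSG00000105621.1, chr13:48537829-48537917) lie on the minus strand within an exon of the long noncoding RNA 6720427I07Rik, beside Mirlet7d. Mirlet7a-2 (ENSMUSG00000092770.1, chr9:41536716-41536811, plus strand) lies in an intron of 3110039I08Rik, which RefSeq names Mir100hg, and beside Mir100. Mirlet7c-1 (ENSMUSG00000065557.3, chr16:77599657-77599750, plus strand) lies in an intron of Mir99ahg beside Mir99a. Mirlet7c-2 (ENSMUSG00000065608.1, chr15:85706603-85706697, plus strand) lies within an exon of 1 of 2 annotated transcripts of the noncoding gene Lncppara, beside Mirlet7b. Mirlet7f-2 (ENSMUSG00000065602.1, chrX:151912346-151912428, plus strand) lies in an intron of Huwe1, which encodes a ubiquitin ligase, beside Mir98. None of the 6 is in the coding sequence of a gene.

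Replicate 1 held 3037063 reads in microRNA genes and replicate 2 held 5284446, and levels below are reads per 1000000 of these (CPM). Mir208a, which lies in an intron of the heart muscle myosin gene Myh6, stood at 5184 CPM in replicate 1 and 9154 CPM in replicate 2. All 7 heart muscle genes of the marker list had reads, but Mir1a-1, Mir1a-2, Mir133a-1 and Mir133a-2 held at most 27.7 CPM in either library. These 4 are themselves copies in pairs, so reads of theirs may map to several places. Their low levels therefore do not show that their mature microRNAs are scarce. Reads that mapped to several places belong to no gene in the tables. They numbered 3857758 in replicate 1 and 6355706 in replicate 2, which was 128 and 112 times the reads of the 6 let-7 copies together. How many of them are let-7 reads cannot be told from the tables, so every level below is the level of reads that were given to 1 gene.

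The 6 copies differed widely in these reads, and Mirlet7f-2 held most of them. It had 19883 reads in replicate 1 and 36674 in replicate 2, or 6547 and 6940 CPM (mean 6743 ± 278, SD, n = 2). Mirlet7c-2 had 4919 and 9033 reads, or 1620 and 1709 CPM (mean 1665 ± 63.4). Mirlet7a-1 had 2173 and 4917 reads, or 715 and 930 CPM (mean 823 ± 152). These 3 are the higher copy of each pair in both libraries. With reads mapped to several places added to the library size, the levels are lower, at a mean of 3017 CPM for Mirlet7f-2, 745 CPM for Mirlet7c-2 and 369 CPM for Mirlet7a-1.

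The lower copies lay between 245 and 518 CPM. Mirlet7c-1 had 1544 reads in replicate 1 and 2736 in replicate 2, or 508 and 518 CPM (mean 513 ± 6.62, SD, n = 2). Mirlet7a-2 had 813 and 1770 reads, or 268 and 335 CPM (mean 301 ± 47.6). Mirlet7f-1 had 743 and 1372 reads, or 245 and 260 CPM (mean 252 ± 10.6). In the order of the 6, the 2 values of each gene lay above both values of the next, and the closest were Mirlet7a-2 and Mirlet7f-1.

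**Figure D2:**
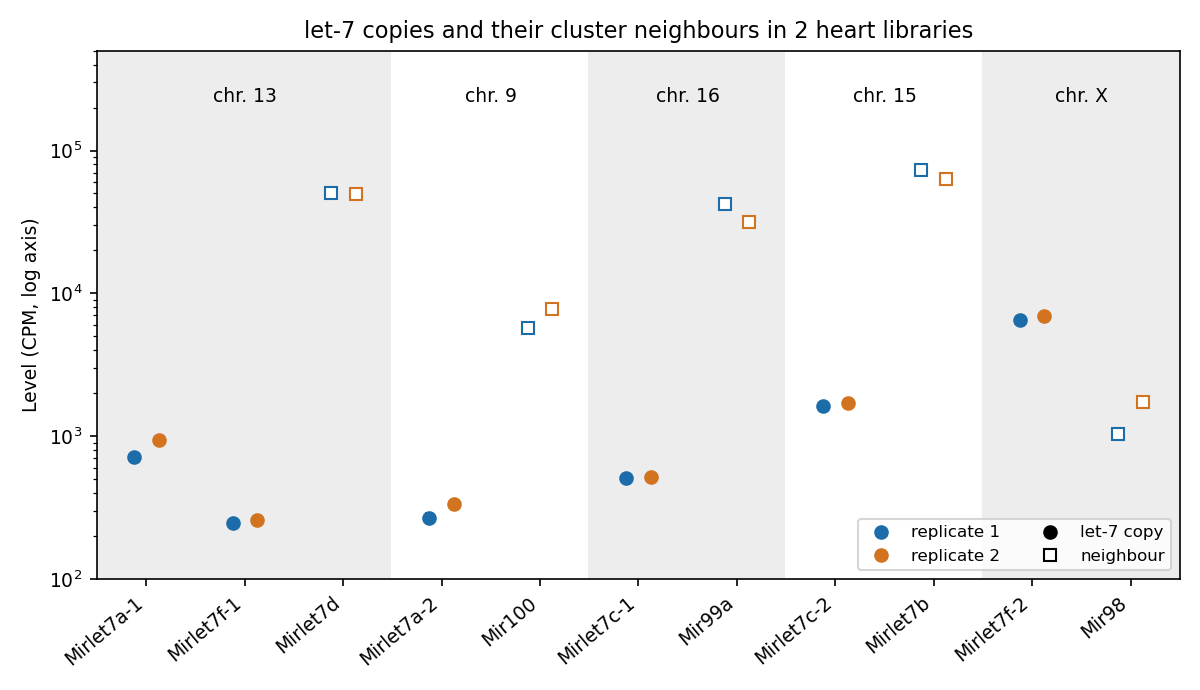
Levels of the 6 copies (filled circles) and their neighbours (open squares) in CPM on a log axis, grouped by chromosome, with 1 point per library. Mirlet7f-2 stands highest of the copies at 6547 and 6940 CPM, above Mir98, while Mirlet7f-1 stands lowest at 245 and 260 CPM.

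Among all microRNA genes ordered by mean CPM, Mirlet7f-2 was at rank 23, Mirlet7c-2 at 52, Mirlet7a-1 at 75, Mirlet7c-1 at 86, Mirlet7a-2 at 102 and Mirlet7f-1 at 107. Together the 6 copies held 0.990% of the reads in microRNA genes in replicate 1 and 1.07% in replicate 2 (mean 1.03% ± 0.0558, SD, n = 2). Of the reads in the 12 let-7 genes with a value, they held 3.86% and 4.28%. The rest went to Mirlet7b, Mirlet7d, Mirlet7e, Mirlet7g, Mirlet7i and Mir98, whose mature sequence comes from 1 gene each, while Mirlet7j and Mirlet7k were matched to no gene by name. Within the 6, Mirlet7f-2 took 66.1% of reads in replicate 1 and 64.9% in replicate 2. Mirlet7c-2 took 16.2% ± 0.261 (SD, n = 2), and no other copy exceeded 8.70% in either library.

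On a scale of CPM per base of the annotated hairpin, the order of the 12 let-7 genes was the same as by CPM: Mirlet7b, Mirlet7i, Mirlet7g, Mirlet7d, Mirlet7f-2, Mirlet7e, Mirlet7c-2, Mir98, Mirlet7a-1, Mirlet7c-1, Mirlet7a-2 and Mirlet7f-1. On the per-base scale the libraries of neighbours in that order overlapped for Mirlet7b and Mirlet7i, for Mir98 and Mirlet7a-1, and for Mirlet7a-2 and Mirlet7f-1. Both orders are by mean. Mirlet7f-2 stood above Mirlet7e and Mir98 in both libraries on either scale. Mirlet7c-2 stood above Mir98 in both libraries per base, but in CPM only in replicate 1 (1620 against 1036 CPM). In replicate 2 Mir98 was higher, at 1742 CPM against 1709 CPM for Mirlet7c-2.

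The question for each pair was how the reads divide between its copies and whether both libraries divide them alike. The tables do not say which arm a read came from, so the counted reads may be longer 5p reads or 3p reads. The mature 3p sequences of Mirlet7a-1 and Mirlet7c-2 match each other's hairpin, while those of their partners Mirlet7a-2 and Mirlet7c-1 match no other annotated hairpin. The higher copy was copy 1 for let-7a and copy 2 for let-7c and let-7f. Mirlet7a-1 exceeded Mirlet7a-2 by 2.67-fold in replicate 1 (95% Clopper-Pearson interval 2.46 to 2.90) and 2.78-fold in replicate 2 (2.63 to 2.93). Mirlet7c-2 exceeded Mirlet7c-1 by 3.19-fold (3.01 to 3.38) and 3.30-fold (3.16 to 3.45). Mirlet7f-2 exceeded Mirlet7f-1 by 26.8-fold (24.9 to 28.8) and 26.7-fold (25.3 to 28.2). As log2 of copy 1 over copy 2, the means were 1.45 ± 0.04 for let-7a, −1.70 ± 0.04 for let-7c and −4.74 ± 0.001 for let-7f (SD, n = 2 libraries). Per base of the annotated hairpin these log2 ratios were 1.48, −1.68 and −4.84, with the same copy higher in each pair. Intervals cover counting error only, since no molecular identifiers are recorded.

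None of the 3 ratios differed between the libraries by Fisher's exact test with Benjamini-Hochberg adjustment over 28 pairs of copies. The log2 ratio in replicate 1 minus that in replicate 2 was −0.06 for let-7a (95% interval −0.20 to 0.09, adjusted p = 0.649). For let-7c it was 0.05 (−0.05 to 0.16, adjusted p = 0.518), and for let-7f it was −0.002 (−0.13 to 0.13, adjusted p = 1). The same test called 7 of the 28 pairs of microRNA copies with at least 10 reads, or 25%, against 0 of 3 for let-7. The bound farthest from 0 among the 3 intervals was −0.20, for let-7a.

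**Figure D3:**
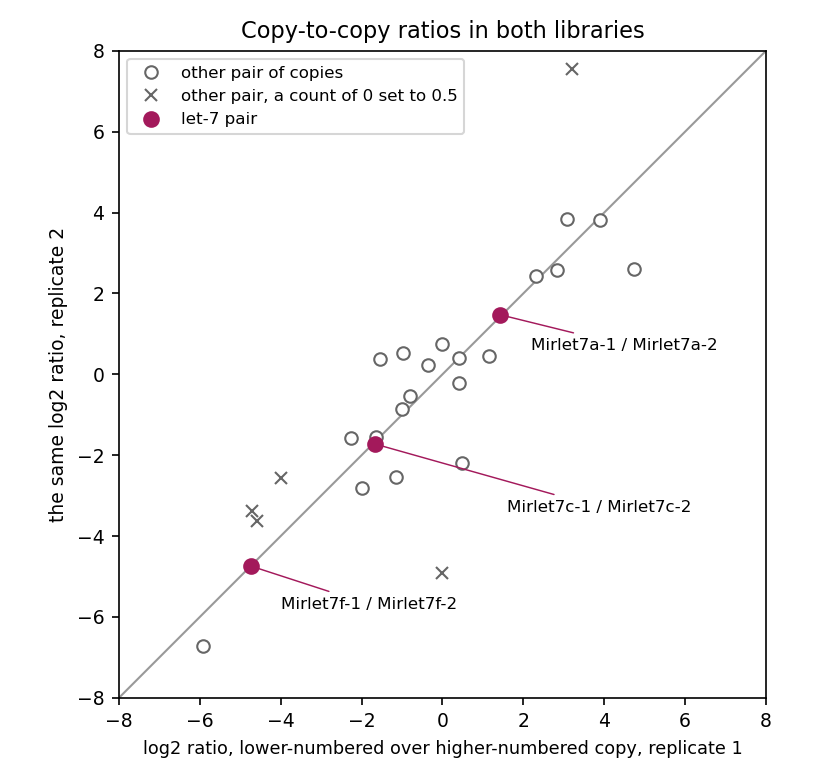
The axes give the log2 ratio of the lower-numbered to the higher-numbered copy in replicate 1 (x axis) against the same ratio in replicate 2 (y axis) for 28 pairs of microRNA genes, with crosses where a count of 0 was set to 0.5 reads. The 3 let-7 pairs, at means of 1.45, −1.70 and −4.74, lie on the line of equal ratios.

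Set beside the other pairs of copies, the let-7 ratios were close between the libraries. The median absolute difference over all 28 pairs was 0.74 on the log2 scale, although many of those pairs have few reads. Among the 12 pairs with at least 1000 reads in all, a minimum chosen after seeing the data, the 3 let-7 differences were the 3 smallest. The next were 0.08 for the copies of Mir30c and 0.09 for those of Mir92, and the largest was 1.91 for Mir26a. Fisher's exact test called 4 of these 12 pairs, and those of Mir30c (adjusted p = 0.341) and Mir92 (0.314) were not among them. Differences this small lie within counting error. The ranking therefore cannot show that the let-7 ratios are more constant than those of Mir30c or Mir92.

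In the size of the ratio the 3 pairs were spread over the range of all copies. Ordered by absolute mean log2 ratio among 20 pairs with at least 100 reads, let-7f came at rank 3, let-7c at 10 and let-7a at 12. The larger ratios were those of Mir181b (−6.32) and Mir3074, where a count was 0. The smallest were those of Mir181a (−0.06), Mir194 (0.10) and Mir29b (−0.21). The same copy was higher in both libraries in 21 of 28 pairs, in 14 of the 20 and in 3 of 3 let-7 pairs.

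A second question was how each copy compares with the microRNA genes beside it, since genes within a cluster are often cut from a shared primary transcript. Neighbours were taken on the same strand with starts within 10000 bases, which gave 7 pairs. The ratios below are of reads given to 1 gene. The mature sequence shared by a pair of copies matches more than 1 hairpin, so its reads may be missing from the copies. For Mirlet7d, Mirlet7b, Mir99a, Mir100 and Mir98, every window of 22 bases was found once among annotated hairpins. Ratios to these genes therefore cannot be read as differences in output within a cluster. The part that missing reads have in them was not tested. In the chromosome 13 cluster, Mirlet7d had 154132 reads in replicate 1 and 262757 in replicate 2, far above both copies. The log2 ratio of Mirlet7a-1 to Mirlet7d was −6.15 in replicate 1 and −5.74 in replicate 2 (mean −5.94 ± 0.29, SD, n = 2). That of Mirlet7f-1 to Mirlet7d was −7.70 and −7.58 (mean −7.64 ± 0.08). Mirlet7a-1 exceeded Mirlet7f-1 by 2.92-fold in replicate 1 and 3.58-fold in replicate 2, and both lie in the same annotated exon.

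Mirlet7c-2 was lower than Mirlet7b, the other let-7 gene of the chromosome 15 cluster, with a log2 ratio of −5.51 in replicate 1 and −5.21 in replicate 2 (mean −5.36 ± 0.21, SD, n = 2). The log2 ratio of Mirlet7c-1 to Mir99a, a member of the miR-99 and miR-100 family, was −6.37 in replicate 1 and −5.94 in replicate 2 (mean −6.15 ± 0.31). That of Mirlet7a-2 to Mir100, of the same family, was −4.42 and −4.53 (mean −4.47 ± 0.08). In reads given to 1 gene, each of these 3 copies thus had fewer than the gene beside it in both libraries.

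Mirlet7f-2 was the exception on the X chromosome. It exceeded Mir98, a let-7 family member, by 6.32-fold in replicate 1 and 3.98-fold in replicate 2 (mean log2 ratio 2.33 ± 0.47, SD, n = 2). Mir98 had 3145 reads in replicate 1 and 9207 in replicate 2. Per base of the annotated hairpin the 7 mean log2 ratios kept their sign and ran from −7.43 for Mirlet7f-1 to Mirlet7d up to 2.71 for Mirlet7f-2 to Mir98.

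**Figure D4:**
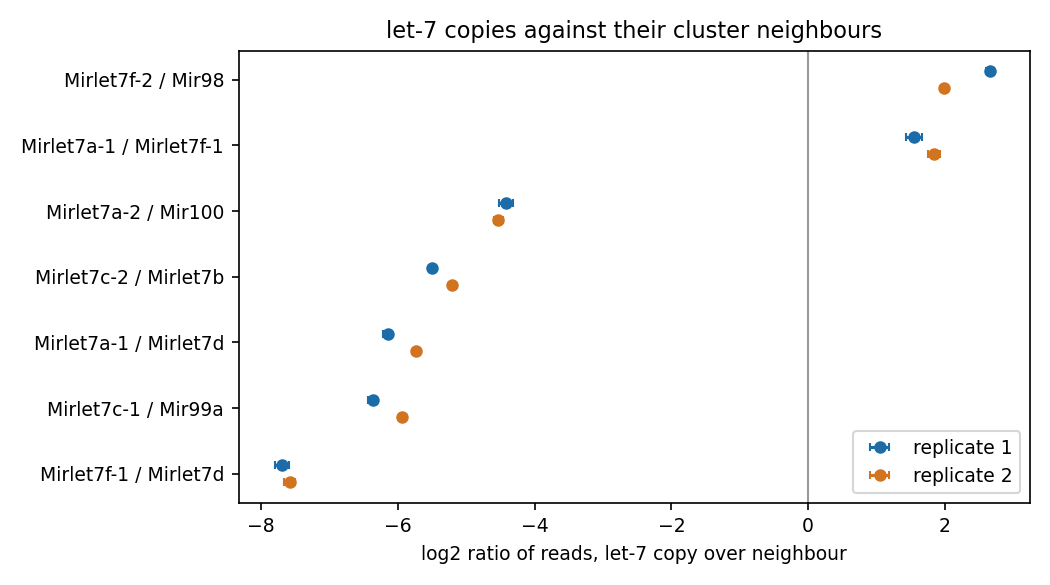
Log2 ratio of a let-7 copy to its neighbour on the same strand within 10000 bases, with 1 point per library for each of the 7 pairs and bars for the 95% Clopper-Pearson interval. Mirlet7f-2 to Mir98 (mean 2.33) and Mirlet7a-1 to Mirlet7f-1 (mean 1.69) are above 0, and the other 5 lie between −4.42 and −7.70.

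Most of the ratios to neighbours differed between the libraries. Fisher's exact test with Benjamini-Hochberg adjustment over 759 neighbour pairs called 5 of the 7, where 13.7% of all pairs were called. Those pairs include many with few reads, for which the test has less power. The median absolute difference was 0.30 on the log2 scale for the 7 pairs and 0.82 for all 759. The called differences, replicate 1 minus replicate 2 on the log2 scale, were 0.67 for Mirlet7f-2 to Mir98 (adjusted p = 1.74e-96), −0.44 for Mirlet7c-1 to Mir99a (7.48e-20), −0.41 for Mirlet7a-1 to Mirlet7d (9.6e-27), −0.30 for Mirlet7c-2 to Mirlet7b (6.24e-29) and −0.29 for Mirlet7a-1 to Mirlet7f-1 (0.0015). For Mirlet7a-2 to Mir100 the difference was 0.11 (95% interval −0.01 to 0.24, adjusted p = 0.336), and for Mirlet7f-1 to Mirlet7d it was −0.12 (−0.25 to 0.01, adjusted p = 0.368). Fisher's exact test rests on counting error, and with 1 group it cannot tell tissue from library preparation.

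In the same genomic stretches, neighbours within 50000 bases added Mir125b-1 and Mir125b-2, copies of a microRNA gene that lie in the clusters of Mirlet7a-2 and Mirlet7c-1. Mirlet7c-1 exceeded Mir125b-2 by 3.56-fold in replicate 1 and 1.93-fold in replicate 2 (adjusted p = 4.2e-21 for the difference by Fisher's exact test). The ratio of Mirlet7a-2 to Mir125b-1 was 0.837 and 0.917 (adjusted p = 0.602).

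Last, each copy was compared between the libraries. All 6 log2 ratios of replicate 1 over replicate 2 were below 0, from −0.03 for Mirlet7c-1 to −0.38 for Mirlet7a-1. Their median was −0.08, and the median of all 424 genes tested was −0.07. An exact binomial test with Benjamini-Hochberg adjustment over the 424 genes called 4 of the 6, all lower in replicate 1, where 30.9% of all genes were called in that direction and 52.8% in either. The 4 were Mirlet7a-1 (−0.38, adjusted p = 2.54e-24), Mirlet7f-2 (−0.08, 1.40e-10), Mirlet7a-2 (−0.32, 3.26e-07) and Mirlet7c-2 (−0.08, 0.00526). Mirlet7f-1 (−0.09, adjusted p = 0.290) and Mirlet7c-1 (−0.03, 0.703) did not pass. The 424 genes include many with few reads, for which the test has less power. With a minimum of 100 reads, which 239 genes besides the 6 met, 184 were called in either direction. Whether the 6 exceed genes of like depth was not tested.

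With the spread of the usual gene between the libraries allowed for, in edgeR's exact test with 1 dispersion shared by all genes, 0 of the 6 copies and 12 of 424 genes (2.83%) were called. The unadjusted p-values of the 6 ran from 0.672 to 0.993 in that test. The dispersion was estimated from these same 2 libraries, so their difference is part of it. The test therefore cannot decide on shifts as small as those of the 6 copies. Scaling by all reads of the tables, in place of reads in microRNA genes, moved the median of all genes by 0.25. It turned 4 of the 6 ratios positive, to 0.22 for Mirlet7c-1, 0.17 for Mirlet7c-2, 0.16 for Mirlet7f-1 and 0.16 for Mirlet7f-2. The binomial test then called all 4 higher in replicate 1 (adjusted p = 5.17e-06, 1.30e-10, 0.0283 and 4.25e-37). With this scaling Mirlet7a-1 stayed called lower in replicate 1 (−0.13, adjusted p = 0.00108), and Mirlet7a-2 was not called (−0.07, 0.313). DESeq2 size factors gave 0.02 for Mirlet7c-1. Both let-7a copies had the more negative ratios of the 6, and both let-7f and both let-7c copies lay between −0.09 and −0.03. Among the 239 other genes whose reads summed to 100 or more, the 3 whose ratio lay nearest to the median of the 6 were Mir193b, Mir505 and Mir185, each with 1 ratio from 2 libraries.

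**Figure D5:**
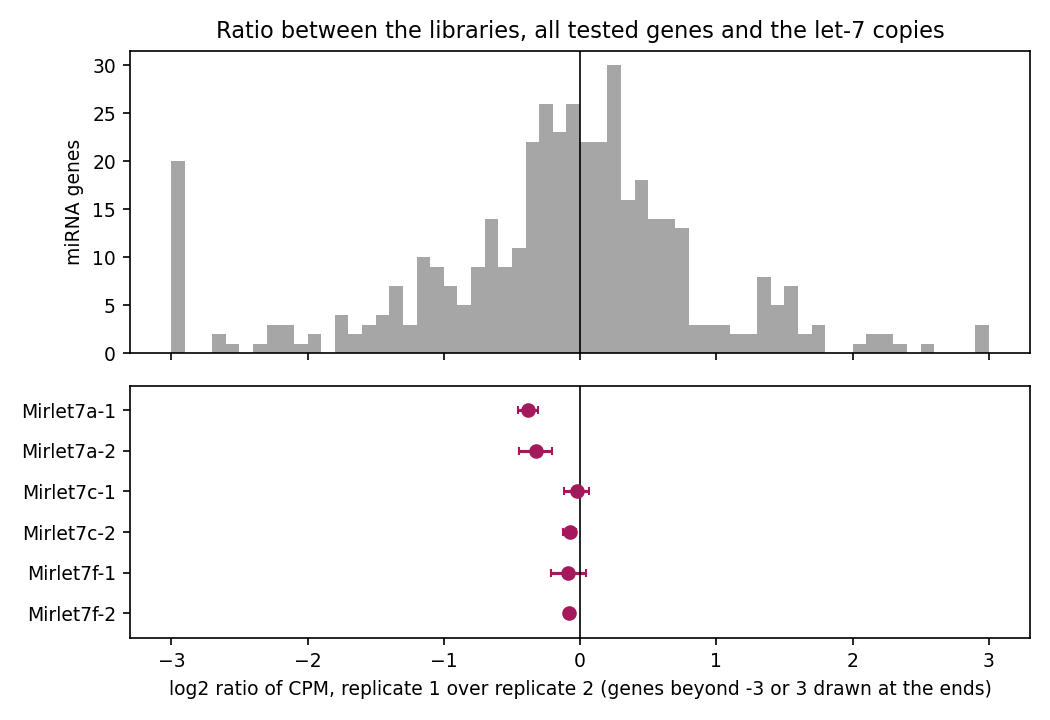
The x axis is the log2 ratio of CPM, replicate 1 over replicate 2, with a histogram of the 424 genes tested above (genes beyond −3 or 3 drawn at the ends) and the 6 let-7 copies below, with 95% Clopper-Pearson intervals. The copies lie between −0.38 and −0.03, and the median of all genes is −0.07.

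The other 6 let-7 genes had a median ratio of 0.01. Mirlet7b (0.22), Mirlet7i (0.07) and Mirlet7d (0.03) were called higher in replicate 1 by the binomial test, which called 21.9% of all genes in that direction. Mir98 (−0.75) and Mirlet7g (−0.16) were called lower in replicate 1, and Mirlet7e (−0.02) was not called. Whether the copies differ from these genes was not tested. Cell type markers also differed between the libraries. The 2 red blood cell genes summed to 7165 CPM in replicate 1 and 1219 CPM in replicate 2, and both were higher in replicate 1. The 6 epithelial genes summed to 148 CPM and 3672 CPM, with Mir205 (2.30 and 1963 CPM) and Mir200c (82.6 and 1652 CPM) holding most of the sum in replicate 2, while Mir200b (0.61) and Mir429 (0.68) had log2 ratios above 0. The 7 heart muscle genes summed to 10834 CPM and 14802 CPM, most of it from Mir208a (log2 ratio −0.82) and Mir499 (0.02). Any reads of the Mir1a and Mir133a copies that map to several places are missing from this sum. Mir126a, the endothelial marker, stood at 85244 CPM and 109823 CPM. No listed gene was at 0 in both libraries. Their part in the ratios of the let-7 copies was not tested. In tissue libraries such as these, fewer cells of a type and less RNA per cell cannot be told apart.

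Reads on the opposite strand of the 6 hairpins came to 1, at Mirlet7a-1 in replicate 2. In the deposited column for either strand, Mirlet7f-1 had 0 reads in both libraries, where Gm24111 is annotated on the opposite strand, so values of Mirlet7f-1 come from the sense column alone. The other 5 copies have nearly the same reads in that column, but the total in microRNA genes is smaller there, 2252906 reads in replicate 1 and 3919613 in replicate 2, so their CPM is higher (a mean of 9091 CPM for Mirlet7f-2).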

How the data were processed

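The authors deposited raw read counts per microRNA gene, 1 table per library, with 3 count columns (either strand and each strand alone) after 4 summary lines. Reads were aligned to mm10 per the labels, with GENCODE release M21 per the text deposited beside the tables. Neither aligner nor counter is named by the labels. The strand column with more reads over microRNA genes was used as the sense column. The summary lines entered no library size and no test of the main results, and were used only in the alternative scalings.

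From these counts, CPM, log2 ratios, Clopper-Pearson intervals (95%), exact two-sided binomial tests between the libraries and Fisher's exact tests of ratios were computed with SciPy 1.17.1, for genes or pairs with a sum over both libraries of at least 10 reads, and adjusted by Benjamini-Hochberg at a threshold of 0.05. For log2 ratios, 0.5 reads stood in for 0. The limit that a count of 0 allows was 3 reads (0.988 CPM for replicate 1, 0.568 CPM for replicate 2). edgeR 4.0.16 (TMM, common dispersion, biological coefficient of variation 40.8%) and DESeq2 1.42.0 (size factors only) gave alternatives, on R 4.3.3. The binomial and Fisher tests were checked on simulated counts that held counting error only. That check does not cover the wider spread between these libraries.

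Hairpins came from the GENCODE annotation and RefSeq (GRCm38.p6). Named genes were the 6 copies, their neighbours, the other let-7 genes, and, with at least 100 reads, the 3 genes nearest in ratio and the copy pairs with the 3 largest and 3 smallest ratios. Outside this rule, cell type markers were named, and Mir30c, Mir92, Mir26a, the Mir125b copies and the pairs under other observations were chosen after their values were seen. Members and lists were chosen with earlier results of these data known.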

Additional observations from a re-analysis of the deposited data

Results flagged for a closer look

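Reads mapped to several places, which enter gene comparisons only through the alternative scalings, numbered 3857758 in replicate 1 and 6355706 in replicate 2. They are a signal outside the counts per gene, and are 1.27 and 1.20 times the reads in microRNA genes. The tables do not name their sequences, and the share that comes from the let-7 copies was not tested.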

How the results depend on the processing

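No paired analysis was possible because the libraries form 1 group. With 2 libraries, a ratio from 1 library or from summed counts lies within 1 SD of the mean by construction and says nothing of stability. Per hairpin base, the let-7f copy ratio moved beyond its SD, to −4.84, and so did 3 of the 7 neighbour ratios (Mirlet7f-1 to Mirlet7d −7.43, Mirlet7c-1 to Mir99a −6.68, Mirlet7a-2 to Mir100 −4.74). In the 23 refits of a change of ratio between libraries (other read minimum, other distance, column for either strand), each kept its side of the threshold. These refits reuse the same or nearly the same counts of each pair, so this too says nothing of stability. Mean levels moved in 11 of 23 cases. Mirlet7a-1 averaged 369 CPM with reads mapped to several places added to the library size, and 1110 CPM in the column for either strand, against 823 CPM as reported. Of 424 genes, 224 differed between the libraries by the binomial test and 12 by the exact test of edgeR, in which the 4 called copies lost their calls. Scaling by all reads turned Mirlet7c-2 to 0.17 and Mirlet7f-2 to 0.16, both then called higher in replicate 1. It also brought calls of Mirlet7c-1 and Mirlet7f-1 in that direction and ended the call of Mirlet7a-2. DESeq2 size factors ended that of Mirlet7c-2. Neighbours within 50000 bases gave 164 called pairs in place of 104. Windows of 18, 20 and 25 bases were found once in 84.0%, 90.4% and 99.0% of cases. A change of scaling moves every log2 ratio by the same amount, 0.25 for scaling by all reads. Why the libraries differ in these totals was not tested. Levels rest on reads given to 1 gene, and the depth of reads lost to several places is unknown per gene.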

Other observations

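A pattern seen only after the values were known concerns the bases just past the mature sequence. In all 3 let-7 pairs the copy with UU there (Mirlet7a-1, Mirlet7c-2 and Mirlet7f-2) had more reads than its partner in both libraries. Among 7 other pairs of copies with at least 10 reads, a shared mature sequence and UU at 1 copy only, the UU copy was higher in both libraries in 4 (Mir128-1, Mir16-1, Mir7-1 and Mir92-1). It was higher in 1 library in 2 (Mir138-1 and Mir29b-2), and in neither in 1 (Mir135a-1). Read lengths and read ends are not in the tables, so the pattern could not be followed further, and it was not tested.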
